A study of Mus musculus with 12 samples.

Results

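The 9 genes described here encode complement components, receptors and a regulator: C1qa, C1qb, C1qc, C3, C4b, Cfb, C3ar1, C5ar1 and Serping1. They were chosen by name, and each was found as 1 row among the 49315 genes of the count table. All 9 had enough reads to be tested, among 20290 tested genes. Complement is a cascade of proteins in which target recognition by C1q, or by lectins, leads to cleavage of C4 and C2 and then of C3, the point at which all routes meet. The alternative route, which uses factor B (the product of Cfb), amplifies that cleavage, and the fragments C3a and C5a signal through the receptors encoded by C3ar1 and C5ar1. In brain, C1q chains are made mostly by microglia and macrophages, C4 and C3 are made by reactive astrocytes among other cells, and complement takes part in the removal of synapses and debris.

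RNA from whole tissue was sequenced in 12 mice, 6 per group, killed at 14 d post-stroke. Stroke was a 30 min transient occlusion of the right middle cerebral artery, made 8 to 10 weeks after bone marrow (BM) transplantation. All recipients were male Pep Boy mice carrying CD45.1 and intact Tet2, aged 8 to 12 weeks, whose marrow had been ablated by irradiation (11 Gy in 2 doses) with the head shielded. In the Tet2-KO group the graft held 10% CD45.2 Tet2-/- BM cells and 90% CD45.1 Tet2+/+ BM cells, and in the WT group the 10% share came from CD45.2 Tet2+/+ BM. The knockout was therefore carried only by 10% of the cells grafted and by their progeny, and the resident brain cells of both groups had intact Tet2. The submitters' treatment entry names control cells for the Tet2-KO mice too, so groups follow the title and the genotype, which name the knockout. The study calls the tissue whole brain in most places and whole brain hemispheres in another, and the labels do not settle which was taken.

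Libraries held 12000261 to 15340787 counted reads in the WT group and 12625047 to 21049763 in the Tet2-KO group. Values below are CPM (reads of a gene per 1000000 reads of its library), scaled for composition between libraries. Tet2 itself was at 131.7 ± 7.60 CPM (SD, n = 6) in WT and 130.9 ± 7.79 CPM in Tet2-KO brains, a log2 fold change of -0.01 (adjusted p = 0.934, edgeR), and since the brain cells and most grafted cells had intact Tet2, this does not check the labels. Markers of neurons were high in every library, with the 8 of them summing to between 2878 and 5100 CPM. The library of WT mouse 2 stood apart: it was the highest WT library for 8 of the 9 genes, and the fits without it are given beside the counts. Tet2-KO mouse 6 had the highest share of mitochondrial reads, 4.74% against 2.87% to 3.59% in the other 11 libraries, and the fit without it is given there too.

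All 9 genes had a lower mean in the Tet2-KO group, against 47.7% of all tested genes lower by any amount. The difference reached an unadjusted p below 0.05 (edgeR quasi-likelihood test) in 7 of the 9, namely C1qa, C1qb, C1qc, C3, C3ar1, C5ar1 and Serping1, against 12.2% of all tested genes called lower in the same way. After Benjamini-Hochberg adjustment over all tested genes none of the 9 passed, against 0.0246% of all tested genes, with adjusted p from 0.128 for C5ar1 to 0.413 for C4b. The DESeq2 Wald test called 2 of the 9 on the 20290 genes tested here (C5ar1 and Serping1), against 7.2% of those genes. On the whole table it called 0 of the 9. The share there was 2.4% of the 37685 genes with a fold change, whether or not they had an adjusted p. With weights for library quality, limma-voom called 3 (C3ar1, C5ar1 and Serping1), against 9.2% of all tested genes. The median log2 fold change of the 9 was -0.88, beside 0.01 over all tested genes. None of the 9 separated the groups completely, a pattern that 0.641% of all tested genes showed in this direction and 0.453% in the other. In bulk tissue, fewer cells of a type and less RNA per cell cannot be told apart.

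With all 12 mice, the unadjusted p of C1qa, C1qb, C1qc and C3ar1 lay between 0.0395 and 0.0440 (edgeR), close to the threshold of 0.05. The count of 7 changed when single mice were left out. It was 2 without WT mouse 2, where 7.92% of all tested genes were lower at that threshold. It was 3 without WT mouse 1, Tet2-KO mouse 2, 3 or 6 (9.66% to 10.7% of all tested genes). Without Tet2-KO mouse 1 it was 4 (9.82%). The median log2 fold change of the 9 moved less without some of these mice than without others. It was -0.88 with all 12 mice and -0.86 without WT mouse 1 or Tet2-KO mouse 2. It was -0.67 without WT mouse 2 and -0.71 without Tet2-KO mouse 1. Without Tet2-KO mouse 5, the highest Tet2-KO library for 6 of the 9 genes, 7 remained under that threshold, against 14.6% of all tested genes. In that fit 3 genes (C3ar1, C5ar1 and Serping1) passed after adjustment, against 11% of all tested genes. With WT mouse 2 and Tet2-KO mouse 5 both left out, 6 genes were under the unadjusted threshold, against 12.1% of all tested genes. After adjustment 2 (C5ar1 and Serping1) passed, against 7.6% of all tested genes. No gene of the 9 had a higher mean in the Tet2-KO group in any of these fits.

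**Figure D1:**
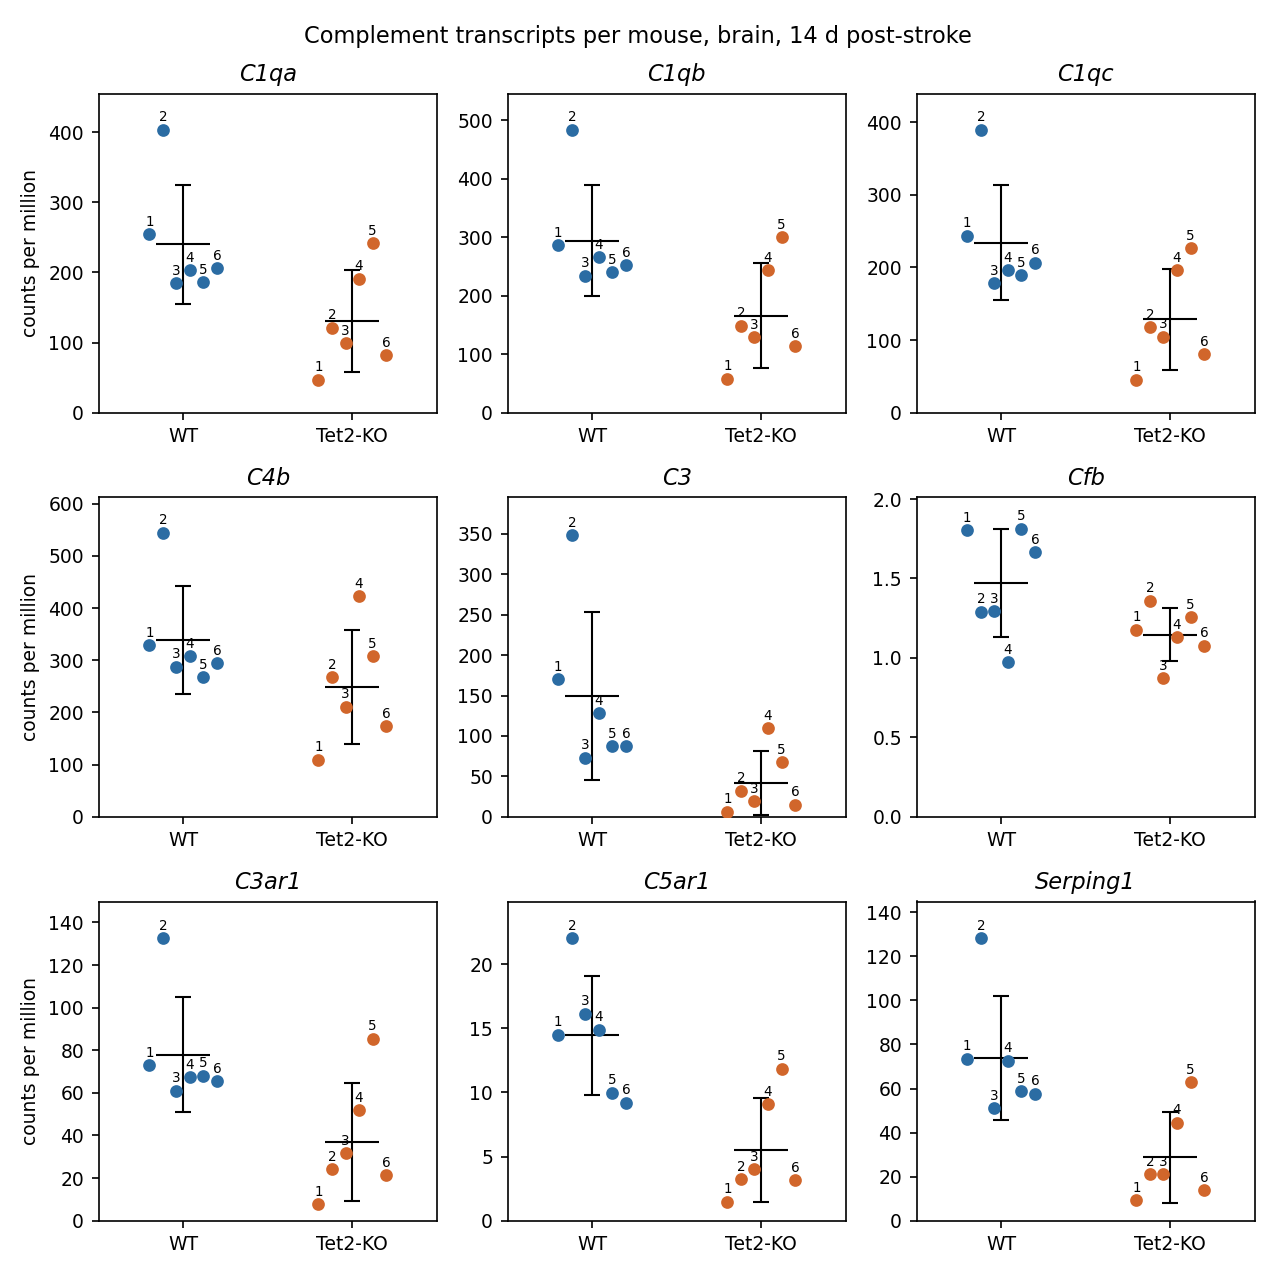
CPM of the 9 complement genes in each brain (y axes start at 0), WT in blue and Tet2-KO in orange, with the mouse number above each point and the mean and SD in black. WT mouse 2 is the highest WT point in all panels but Cfb, and Tet2-KO mouse 1 is the lowest Tet2-KO point in all panels but Cfb.

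C1qa, C1qb and C1qc encode the chains that assemble into C1q, the recognition molecule of the classical pathway. The genes lie side by side on the minus strand of chromosome 4 (GRCm38, the mouse build also called mm10), C1qa at 136895917 to 136898803, C1qc at 136889804 to 136893065 and C1qb at 136880129 to 136886187. C1qa ranged from 185 to 404 CPM in the WT mice (median 205) and from 47.0 to 241 CPM in the Tet2-KO mice (median 110.3). For C1qb the WT values ran from 234 to 484 CPM (median 259) and the Tet2-KO values from 58.1 to 299.9 CPM (median 139). For C1qc they ran from 179 to 389.9 CPM (median 202) and from 45.5 to 226 CPM (median 111). In all 3 genes the groups overlapped, since Tet2-KO mice 4 and 5 lay within the WT range while the other 4 lay below every WT mouse. The log2 fold changes were -0.88 (SE 0.376) for C1qa, -0.83 (SE 0.362) for C1qb and -0.86 (SE 0.369) for C1qc, with 95% intervals that reached up to between -0.05 and -0.03. Their unadjusted p were 0.0396, 0.0440 and 0.0395, and their adjusted p were 0.196, 0.205 and 0.196 (edgeR). The chains kept close proportions, since C1qa CPM over C1qb CPM was 0.765 to 0.892 in the WT mice and 0.716 to 0.815 in the Tet2-KO mice.

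C1q chains varied among mice together with general markers of microglia and macrophages, with Pearson's r of 0.994 to 0.996 over the 12 mice after subtraction of group means. The 7 markers of that list summed to 541 to 1021 CPM in WT (median 572) and to 164 to 661 CPM in Tet2-KO brains (median 342), with 5 of the 7 lower at an unadjusted p below 0.05. Csf1r made up 41.4% of this sum in WT and 48.3% in Tet2-KO brains. It was the least changed of the 7, whose log2 fold changes ran from -1.16 to -0.53. The log2 ratio of C1qa to this sum differed between groups by -0.16, with an SD of 0.117 among WT and 0.148 among Tet2-KO mice, and was not computed without Csf1r. Against 8 markers of homeostatic microglia, of which 1 was lower at that threshold, the same difference was -0.60. Within that list, P2ry12, a purine receptor of resting microglia, was at 39.9 and 41.2 CPM (log2 fold change 0.05, adjusted p = 0.849, edgeR). The part of these cells in the C1q values was not tested.

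**Figure D2:**
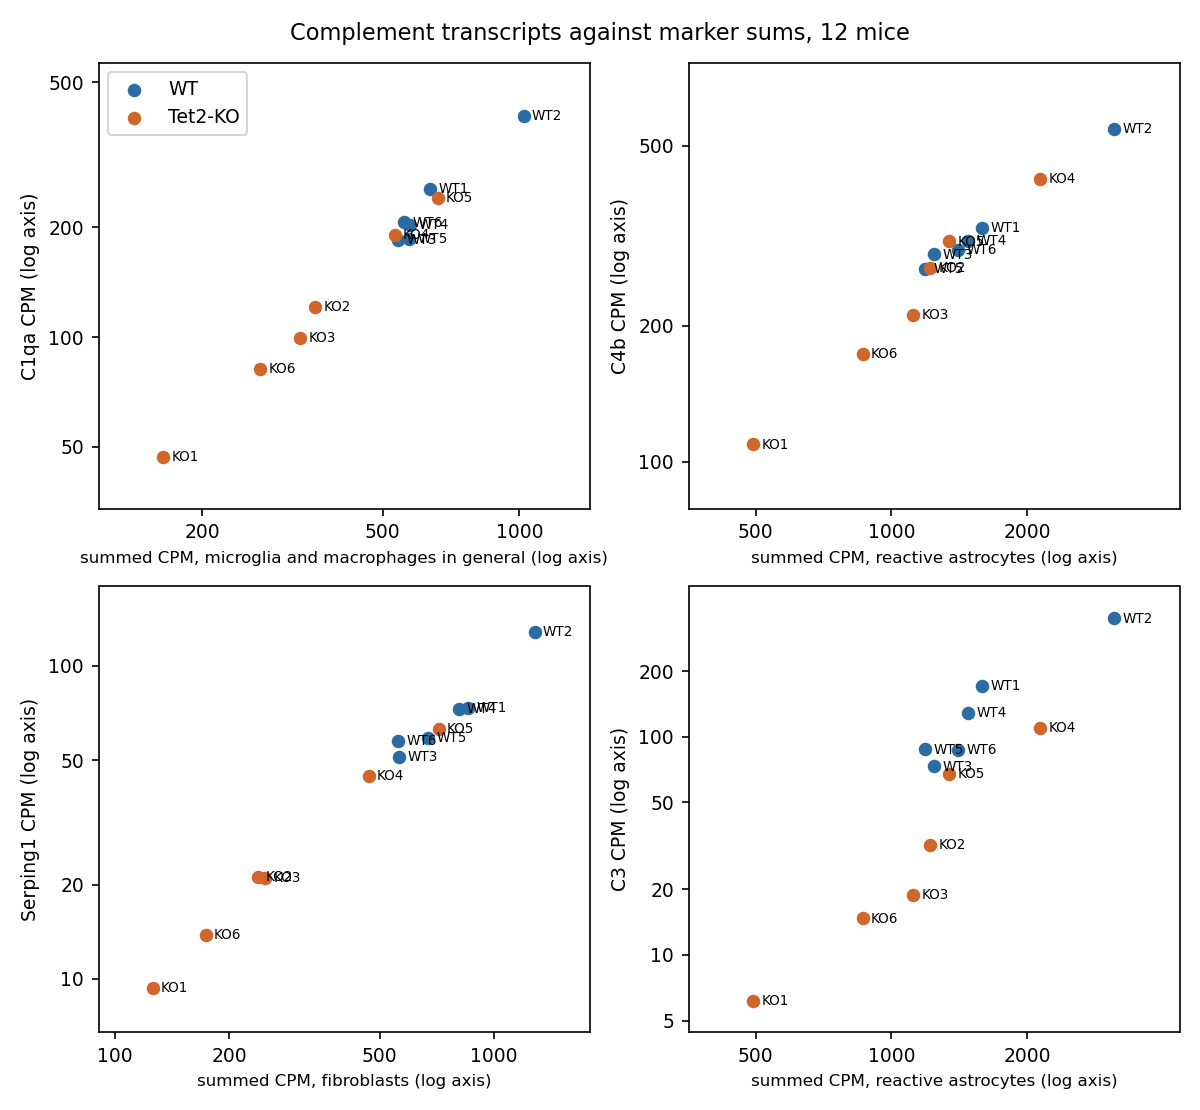
CPM of a complement gene (y axis, log) against the summed CPM of a marker list (x axis, log) in each of the 12 brains, WT in blue and Tet2-KO in orange. C1qa, C4b and Serping1 lie near 1 line for both groups, while most Tet2-KO mice lie below the WT mice for C3 at a like sum of reactive astrocyte markers, which is mostly Gfap.

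Promoters of C1qb and C1qc are shown because the chains moved together across mice. RefSeq (GRCm38.p6) entries were matched for 5 of the 9 genes, C1qb, C1qc, C3, C3ar1 and C5ar1. The 250 bases upstream of the RefSeq start, read 5′ to 3′ on the minus strand, are chr4:136886201-136886450 for C1qb and chr4:136892915-136893164 for C1qc. RefSeq and GENCODE place some starts apart: 151 of the 250 bases of the C1qc window and 202 of those of C5ar1 lie inside the gene as GENCODE gives it, and the C/EBP cores of both windows lie in that stretch. Capitals mark the letters GAGGAA or their complement TTCCTC (the core of sites for the myeloid factor PU.1) and TTNNGNAA (a core of C/EBP sites).
C1qb: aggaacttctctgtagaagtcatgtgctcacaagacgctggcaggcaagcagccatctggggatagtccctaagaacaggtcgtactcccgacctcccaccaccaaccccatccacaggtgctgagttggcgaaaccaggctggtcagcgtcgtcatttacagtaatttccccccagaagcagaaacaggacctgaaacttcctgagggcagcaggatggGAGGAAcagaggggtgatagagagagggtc
C1qc: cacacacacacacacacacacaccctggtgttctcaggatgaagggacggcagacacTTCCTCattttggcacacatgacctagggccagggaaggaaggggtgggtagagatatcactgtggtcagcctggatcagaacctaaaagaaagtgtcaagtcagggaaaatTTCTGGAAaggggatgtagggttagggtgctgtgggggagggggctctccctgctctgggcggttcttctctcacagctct
On either strand, the PU.1 core was found in both windows, at bases -30 to -25 of C1qb and -193 to -188 of C1qc, and 23.3% of all 32851 promoters of the same length hold it. The C/EBP core was found in the C1qc window at -81 to -74, and 36.8% of all promoters hold it. A match of letters is a description and shows no binding.

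C4b and C3 encode the thioester proteins that attach covalently to targets. C4b lies on chromosome 17 from 34728380 to 34743882. It ranged from 267 to 545 CPM in WT (median 301) and from 109 to 422 CPM in Tet2-KO mice (median 239). The groups overlapped widely, with 3 of 6 Tet2-KO mice inside the WT range. The log2 fold change was -0.44 (SE 0.305), with a 95% interval from -1.12 to 0.23 (adjusted p = 0.413, edgeR), and a difference was not shown. C4b has a near-identical copy, C4a, so reads matching both could not be assigned with certainty, and C4a was counted at 1.73 ± 0.232 CPM in WT and 2.15 ± 0.605 CPM in Tet2-KO brains (log2 fold change 0.32, adjusted p = 0.332).

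C3 (chromosome 17, 57203970 to 57228136) had the largest log2 fold change of the 9 genes and the widest spread. It ranged from 73.0 to 349 CPM in the WT mice (median 108) and from 6.13 to 109 CPM in the Tet2-KO mice (median 25.5). The highest Tet2-KO mouse was 17.8 times the lowest, and the highest WT mouse 4.77 times the lowest. All Tet2-KO mice except mouse 4 lay below every WT mouse. The log2 fold change was -1.84 (SE 0.677), with a 95% interval from -3.34 to -0.34 and an unadjusted p of 0.0208 (adjusted p = 0.158, edgeR). It was -1.39 without WT mouse 2 and -2.43 without Tet2-KO mouse 4, and its adjusted p ran from 0.0503 to 0.342 over all alternatives.

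C3 and C4b differed in size of change although they varied together among mice. C3 CPM over C4b CPM was 0.254 to 0.64 in WT (median 0.372) and 0.0562 to 0.259 in Tet2-KO mice (median 0.105), and the geometric mean of this ratio in Tet2-KO brains was 0.308 of that in WT. The 6 markers of reactive astrocytes summed to 1187 to 3113 CPM in WT (median 1442) and to 493 to 2136 CPM in Tet2-KO brains (median 1168), with 3 of the 6 lower at an unadjusted p below 0.05. Gfap, the astrocyte filament protein that made up 63.3% of that sum in WT, was at 1058 and 834 CPM (log2 fold change -0.34, adjusted p = 0.578, edgeR). The log2 ratio of C4b to the sum of that list differed between groups by 0.00 (SD 0.14 in WT, 0.109 in Tet2-KO), while that of C3 differed by -1.69 (SD 0.393 and 0.864). Both ratios rest largely on Gfap, the least changed of the 6 markers, whose log2 fold changes ran from -1.78 to -0.34. They were not computed without it. C3 was also low against markers of microglia and macrophages in general (-1.37) and of fibroblasts (-0.77). The part of these cell types was not tested.

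The C3 promoter is shown because it holds a cluster of C/EBP cores. The 250 bases upstream of its RefSeq start lie at chr17:57228137-57228386 on the minus strand, with TTNNGNAA in capitals.
C3: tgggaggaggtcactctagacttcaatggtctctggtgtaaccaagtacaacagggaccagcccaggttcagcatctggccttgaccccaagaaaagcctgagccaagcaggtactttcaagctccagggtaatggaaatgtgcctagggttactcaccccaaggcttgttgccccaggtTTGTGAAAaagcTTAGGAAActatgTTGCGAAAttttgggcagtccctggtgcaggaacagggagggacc
The 3 runs lie at -70 to -63, -58 to -51 and -45 to -38, and the last reads as a C/EBP core on both strands. Neither C1q window shown has more than 1 such run. C5ar1 has 1, at -157 to -150, and C3ar1 has none but holds TATAAA at -235 to -230, which 12.4% of promoters hold. Interferon-type motifs were absent from all 5 windows, both TTCNNNGAA (the GAS motif, in 7.02% of promoters) and a core of GAAA, any 2 bases and GAAA (in 2.98%).

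Cfb encodes factor B, the protease of the alternative C3 convertase. It was the least abundant of the 9 genes, with 13 to 28 reads per mouse. It ranged from 0.972 to 1.81 CPM in WT (median 1.48) and from 0.874 to 1.36 CPM in Tet2-KO mice (median 1.15), and only Tet2-KO mouse 3 lay under the WT range. The log2 fold change was -0.34 (SE 0.189), with a 95% interval from -0.74 to 0.06 (adjusted p = 0.293, edgeR). The gene lies on chromosome 17 at 34856374 to 34862518, and 79.5% of its 2825 exon bases are shared on the same strand with Gm20547, an annotated gene that spans C2 and Cfb. Gm20547 is in the count table with 0 reads in every library, so reads of the shared exons may have been left uncounted. The Cfb level is therefore uncertain, and it may rest on the 579 bases that are not shared.

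C3ar1 and C5ar1 encode the G protein-coupled receptors for C3a and C5a, found chiefly on myeloid cells. C3ar1 (chromosome 6, 122847138 to 122856161) ranged from 61.0 to 132 CPM in WT (median 67.7) and from 7.62 to 85.4 CPM in Tet2-KO mice (median 28.0). C5ar1 (chromosome 7, 16246743 to 16259540) ranged from 9.20 to 22.0 CPM (median 14.7) and from 1.49 to 11.8 CPM (median 3.65). In both genes 5 of 6 Tet2-KO mice lay under the WT range, and mouse 5 lay within the WT range. The log2 fold change of C3ar1 was -1.08 (SE 0.471), with an unadjusted p of 0.0436 and an adjusted p of 0.204 (edgeR). That of C5ar1 was -1.41 (SE 0.438), with an unadjusted p of 0.00821, the lowest of the 9 genes, and an adjusted p of 0.128. C5ar1 was under an unadjusted p of 0.05 in all 12 fits that left out a mouse, with log2 fold changes from -1.76 to -1.22, whereas C3ar1 was so in 4 of 12. Markers of infiltrating monocytes summed to 81.2 to 131 CPM in WT and to 39.3 to 93.7 CPM in Tet2-KO brains, with 5 of 6 lower at that threshold. Vcan, a matrix proteoglycan at 58.3 and 51.5 CPM (log2 fold change -0.18), made up 62.6% of this sum in WT and 83.4% in Tet2-KO brains, while the other 5 markers had log2 fold changes from -1.95 to -1.65. The direction of the C5ar1 ratio turned with that gene: the log2 ratio of C5ar1 to the sum differed between groups by -1.05 with Vcan and by 0.82 without it. Against activated phagocyte markers it differed by -0.38, and against neutrophil markers by -0.01. Apoe made up 69.9% of the activated phagocyte sum in WT and 78.6% in Tet2-KO brains. The 8 markers of that list had log2 fold changes from -2.02 to -0.74, so the ratio to that sum depends on the weight of Apoe. Neutrophil markers were scarce: Ly6g reached at most 1 read in a library, 3 of 8 were tested and all 3 were lower at that threshold, 2 of them after adjustment. S100a8, a calcium-binding protein of neutrophils and monocytes, was at 4.52 ± 1.91 CPM in WT and 1.01 ± 0.389 CPM in Tet2-KO brains (log2 fold change -2.16, adjusted p = 0.0364). The part of infiltrating cells in the receptor values was not tested.

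Hc, which encodes C5, the source of the C5a ligand, was too low to be tested, at 0.677 ± 0.319 CPM in WT and 0.559 ± 0.266 CPM in Tet2-KO brains. The hepatocyte markers summed to at most 1.18 CPM in any brain, and 0 of 5 were tested, so hepatocyte transcripts were near 0.

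Serping1 encodes C1 inhibitor, which inactivates the C1r and C1s proteases attached to C1q. The gene lies on chromosome 2 from 84765387 to 84775444. It ranged from 51.1 to 128 CPM in WT (median 65.7) and from 9.36 to 62.8 CPM in Tet2-KO mice (median 21.1), and all Tet2-KO mice but mouse 5 lay below every WT mouse. The log2 fold change was -1.36 (SE 0.447), with a 95% interval from -2.35 to -0.37 and an unadjusted p of 0.0115 (adjusted p = 0.136, edgeR). It stayed under an unadjusted p of 0.05 in all 12 fits that left out a mouse, between -1.73 and -1.13. Among marker lists, Serping1 followed fibroblasts (r = 0.993), activated phagocytes (0.991) and microglia and macrophages in general (0.98) about equally closely. The 6 fibroblast markers summed to 559.7 to 1282 CPM in WT and 126 to 715 CPM in Tet2-KO brains, all 6 were lower at an unadjusted p below 0.05, and the log2 ratio of Serping1 to their sum differed by -0.13 between groups (SD 0.106 in WT, 0.126 in Tet2-KO). Against activated phagocyte markers, a sum that was mostly Apoe, that ratio differed by -0.29, and against those of microglia and macrophages in general by -0.73. The part of these cell types was not tested.

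Per kilobase of exon, the only scale on which levels of different genes can be compared, the order in WT brains was C1qb (269.9 ± 87.2 CPM per kb), C1qa (231 ± 80.9), C1qc (121 ± 41.1), C4b (59.4 ± 18.1), Serping1 (31.7 ± 12.1), C3 (29.0 ± 20.2), C3ar1 (18.1 ± 6.28), C5ar1 (5.63 ± 1.81) and Cfb (0.522 ± 0.121). Recognition molecules were thus far above the receptors in the same tissue. Neighbours in this order kept it in 6 of 6 WT mice and 6 of 6 Tet2-KO mice, with exceptions at 2 places: Serping1 was above C3 in 4 WT and 5 Tet2-KO mice, and C3 was above C3ar1 in 6 WT mice but in 2 Tet2-KO mice. Ranges of neighbours overlapped between mice of a group except between C3ar1 and C5ar1 in WT and between C5ar1 and Cfb in both groups. In Tet2-KO brains C3ar1 (8.61 ± 6.45 CPM per kb) stood above C3 (8.06 ± 7.71), a reversal within the spread. By the longest transcript in place of all exons C1qc was at 195 CPM per kb in WT, and counting only unshared exon bases put Cfb at 2.54 CPM per kb in WT and 1.98 in Tet2-KO brains.

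Other complement genes, 51 in all and grouped by role, gave 33 that could be tested. In Tet2-KO brains, 14 of these had an unadjusted p below 0.05 and a lower mean and 5 a higher mean, against 12.2% of all tested genes lower and 10.8% higher. None passed after adjustment in edgeR, against 0.0246% of all tested genes. DESeq2 called 10 (8 lower and 2 higher) on the same genes, against 7.2% of all tested genes. It called 7 on the whole table, against 2.4% of the 37685 genes with a fold change there. A count of 11 came from limma-voom, against 9.2% of all tested genes. The median log2 fold change of the 33 was -0.26.

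In the classical route, C1ra and C1s1, the proteases that C1q activates, were at 13.3 and 9.21 CPM in WT and at 4.47 and 3.35 CPM in Tet2-KO brains (log2 fold changes -1.59 and -1.47, adjusted p = 0.115 and 0.11, edgeR). C2, the protease of the classical C3 convertase, was at 7.34 and 3.45 CPM (-1.09, adjusted p = 0.116), with 46.9% of its exon bases shared with other genes. C1s1 also overlaps an antisense gene over 18.4% of its exon bases. Beside the protease it blocks, Serping1 CPM over C1s1 CPM was at a median of 7.48 in WT and 8.81 in Tet2-KO mice. In the lectin route, Colec12, a scavenger receptor with a collectin domain, had a log2 fold change of -0.80 (adjusted p = 0.187), and 6 of 9 genes of that route were too low to be tested.

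Cfp, which encodes properdin, the stabilizer of the alternative convertase, was at 24.8 and 15.1 CPM (log2 fold change -0.72, adjusted p = 0.114, edgeR). It was the only other gene of the alternative route that could be tested. Of the terminal pathway, C6 was at 3.40 and 1.28 CPM (-1.45, adjusted p = 0.135), C7 and C8g did not reach an unadjusted p of 0.05, and 4 of 7 genes were too low to be tested.

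Regulators lay on both sides of 0. Clusterin (Clu), an inhibitor of the terminal complex made in quantity by astrocytes, was at 579 and 599 CPM (0.05, 95% interval -0.15 to 0.25), and vitronectin (Vtn) at 61.9 and 54.5 CPM (-0.18, 95% interval -0.43 to 0.07). Cr1l, a membrane regulator of C3 cleavage, was at 39.6 and 37.1 CPM (-0.09, 95% interval -0.22 to 0.03). Cd93 and Thbd, surface proteins of endothelial and myeloid cells, had log2 fold changes of -0.90 and -0.65 (adjusted p = 0.123 and 0.115).

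All 5 genes that were higher at an unadjusted p below 0.05 were membrane regulators, and 4 of them, Csmd1, Csmd2, Csmd3 and Susd4, are transmembrane proteins with complement control repeats known from neurons. Csmd1 was at 216 ± 24.7 CPM in WT and 261 ± 32.4 CPM in Tet2-KO brains (log2 fold change 0.27, adjusted p = 0.133, edgeR). Csmd2, Csmd3 and Susd4 had log2 fold changes of 0.23, 0.14 and 0.21. The remaining gene was Cd46, a cofactor for cleavage of C3b and C4b, at 19.4 and 22.3 CPM (0.20, adjusted p = 0.198). Markers of neurons were also higher, 7 of 8 at an unadjusted p below 0.05 with a median log2 fold change of 0.24, and their part in these values was not tested. The counts of 5 higher and of 14 lower genes were the same under DESeq2 size factors and under upper quartile scaling.

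Among receptors, Itgam, Itgax and Itgb2, the chains of the integrin receptors for C3 fragments, were at 27.1, 27.0 and 65.2 CPM in WT and at 17.3, 11.5 and 32.1 CPM in Tet2-KO brains. Their log2 fold changes were -0.65, -1.24 and -1.03, with adjusted p of 0.184, 0.159 and 0.176 (edgeR). Itgam and Itgax are also on the lists of phagocyte markers, and 68.7% of the exon bases of Itgam are shared with another gene of the same strand. Calr and Lrp1, a chaperone that binds C1q and the endocytic receptor it signals through, had smaller log2 fold changes of -0.26 and -0.29 (adjusted p = 0.129 and 0.143). C5ar2, the second C5a receptor, was at 3.75 and 2.32 CPM (-0.69, adjusted p = 0.224).

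**Figure D3:**
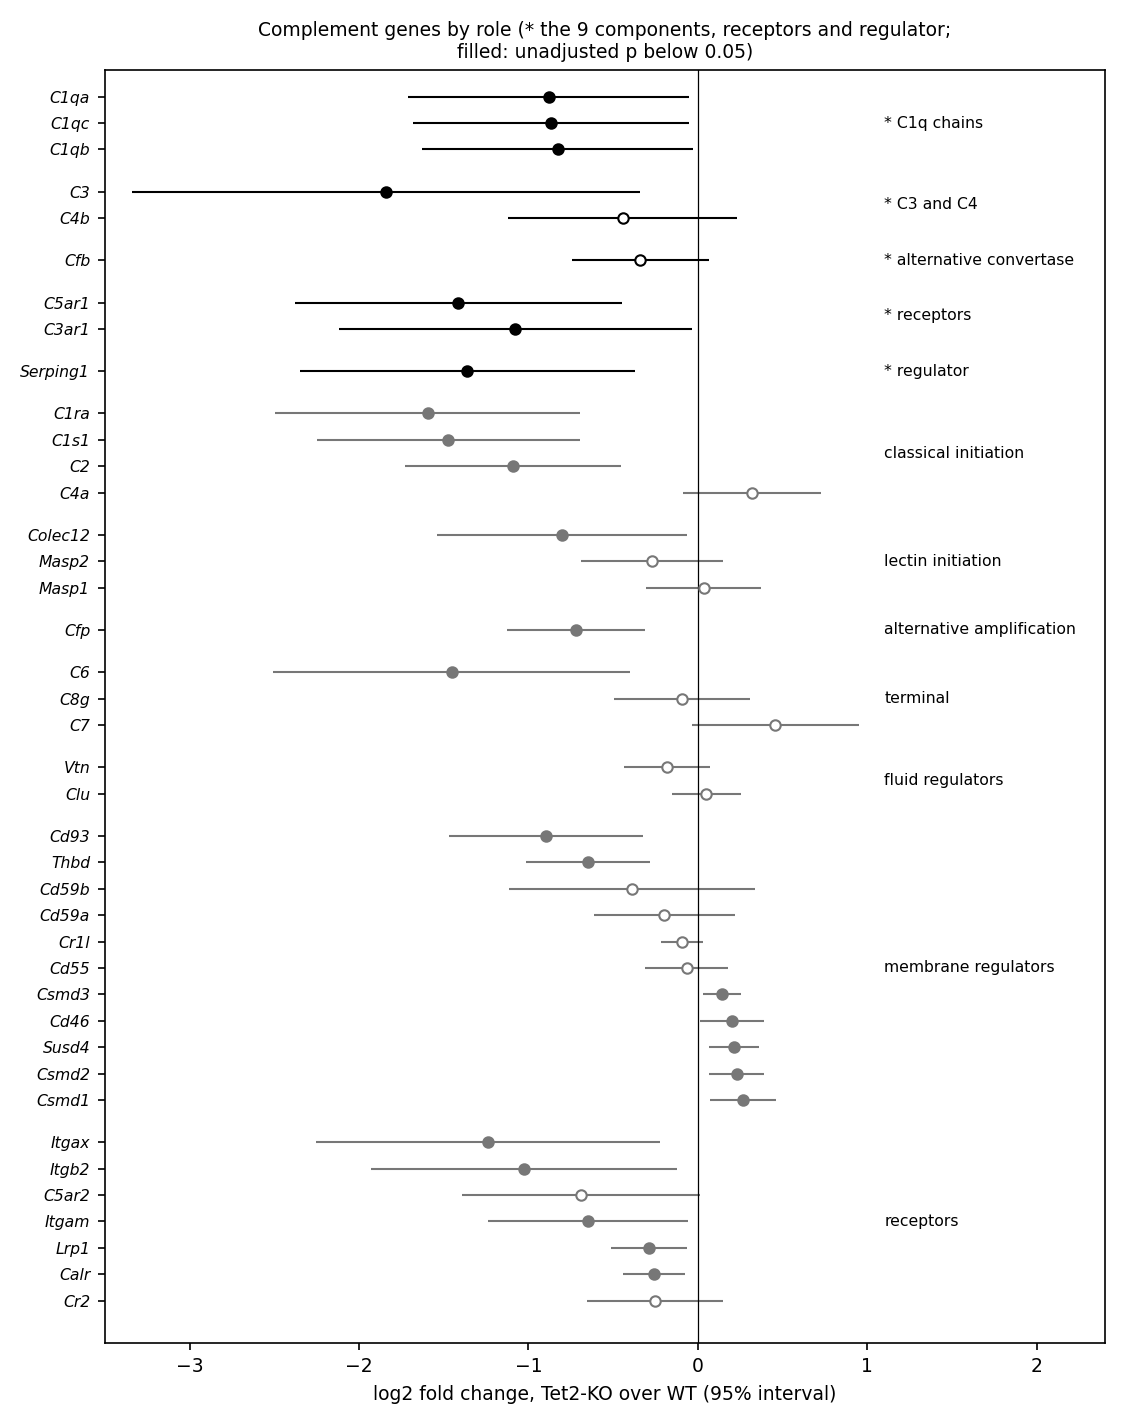
Log2 fold change (Tet2-KO over WT) with its 95% interval for the 9 complement genes (black) and other tested complement genes (grey) by role, filled where the unadjusted p is below 0.05. C4bp is left out because its fit gave no usable error. C3 lies farthest to the left at -1.84, and the genes right of 0 with filled symbols are the 5 membrane regulators.

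Apart from the difference between groups, 8 of the 9 genes varied together from mouse to mouse. After each group's mean was subtracted, Pearson's r of log2 CPM over the 12 mice lay between 0.858 and 0.997 for all 28 pairs of these 8, and Spearman's rho between 0.699 and 0.972. Without Tet2-KO mice 1 and 5, the mice farthest from their group in C1q, r ran from 0.789 to 0.995 and rho from 0.479 to 0.988. Within the 6 Tet2-KO mice r ran from 0.875 to 0.997 and rho from 0.886 to 1.0. Within the 6 WT mice r ran from 0.653 to 0.997 but rho from 0.143 to 1.0, so that by rank some pairs were only weakly alike among WT mice, where mouse 2 stood apart. Cfb was apart, with r between -0.154 and 0.0747 to the other 8 genes, at 13 to 28 reads per mouse. Genes of 1 library share its tissue sample and its depth, so these values describe the mice and are given with no p.

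**Figure D4:**
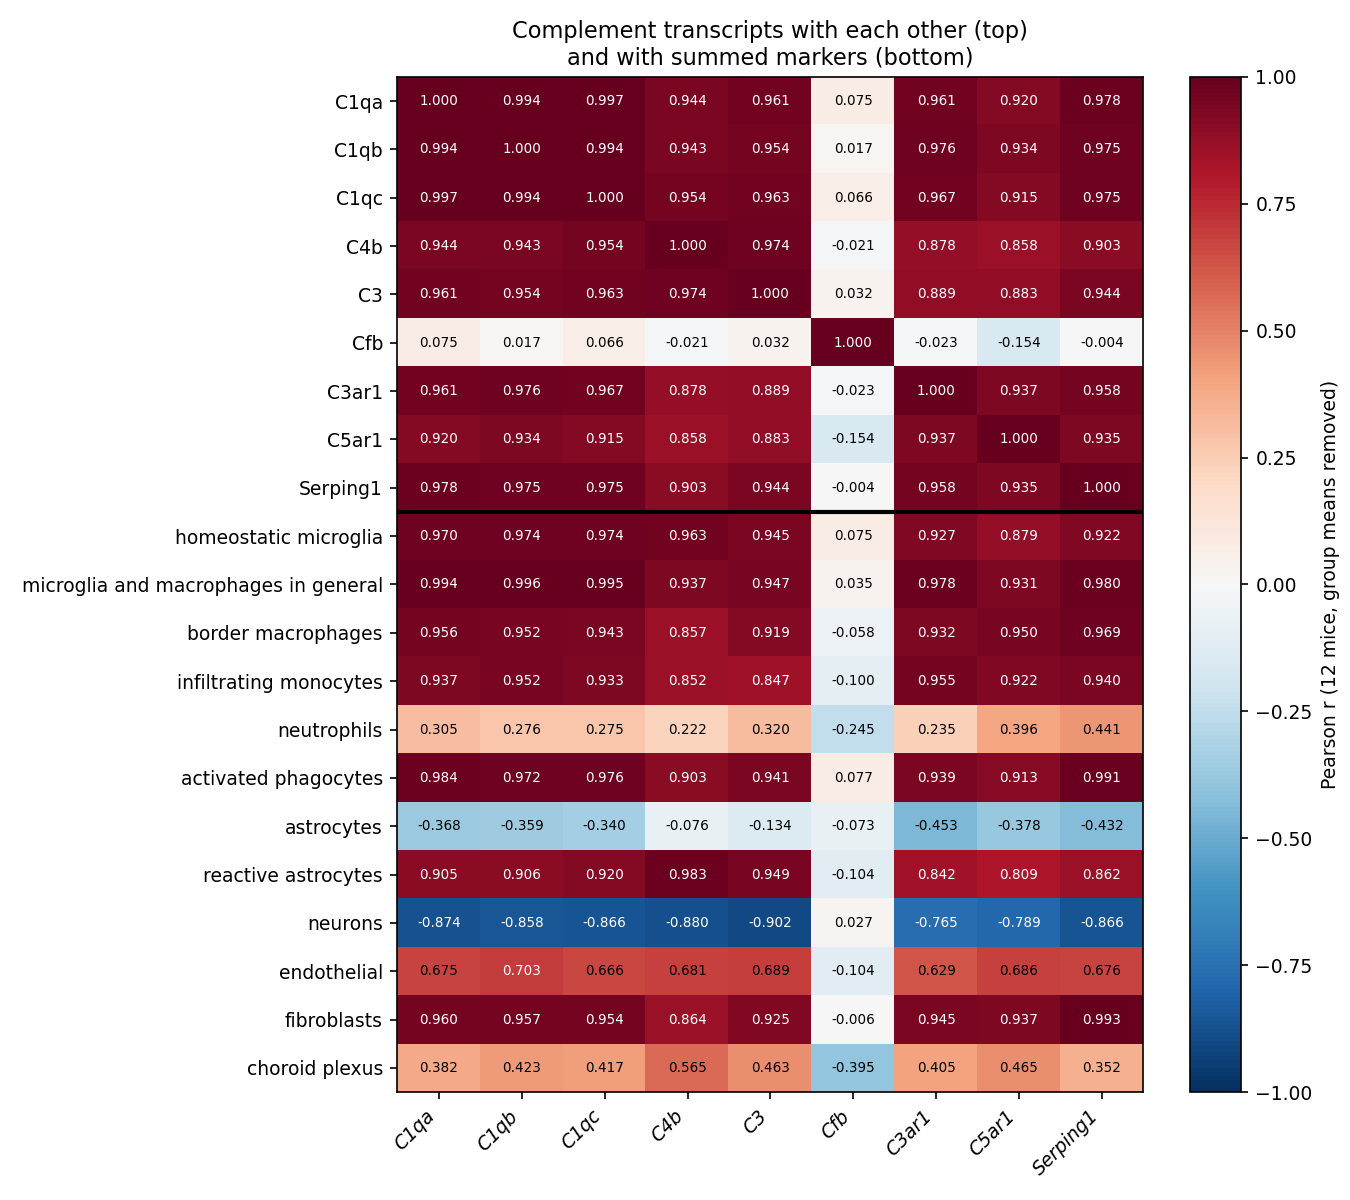
Pearson's r of log2 CPM over the 12 mice after subtraction of group means, among the 9 genes (top) and between each gene (columns) and the summed CPM of each marker list (bottom). All genes but Cfb are red against each other and against myeloid, reactive astrocyte and fibroblast sums, and blue against neurons.

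The genes closest to C1q in this measure, among all tested genes outside the complement lists, were Ctsz (r = 0.999), Gusb (0.996), AU020206 (0.994), Wasf2 (0.994) and Ctss (0.993). Ctsz and Ctss are lysosomal cathepsins and Gusb a lysosomal glucuronidase, and their log2 fold changes of -0.82, -0.86 and -0.91 were close to those of the C1q chains. AU020206 was at -0.72, and Wasf2 changed less, at -0.38. C4b was closest to Flnc (0.99), A2m (0.988), Tgm1 (0.983), Gsn (0.983) and Acsf2 (0.981). C3 was closest to Adamts2 (0.984), Plxnb2 (0.979), A2m (0.978), Itgb5 (0.977) and Ctsd (0.976), whose log2 fold changes lay between -0.97 and -0.42 and so were smaller than that of C3. A2m, a protease inhibitor related to C3 and C4 in sequence, was on both lists.

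The summed level of neuronal markers ran against the 8 genes, with r from -0.902 for C3 to -0.765 for C3ar1. That of general astrocyte markers, of which 0 of 6 had a lower mean at an unadjusted p below 0.05 and 1 a higher mean, was only weakly related, with r from -0.453 to -0.0757. Slc1a2, the marker that was higher, made up 74.5% of this astrocyte sum in WT and 77.2% in Tet2-KO brains. These r therefore describe mostly Slc1a2, while the 6 markers had log2 fold changes from -0.40 to 0.13. Choroid plexus markers, with Ttr at 523 and 439 CPM (log2 fold change -0.25, adjusted p = 0.26, edgeR), gave r from 0.352 to 0.565. Ttr made up 88.2% of the choroid plexus sum in WT and 88.5% in Tet2-KO brains.

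**Figure D5:**
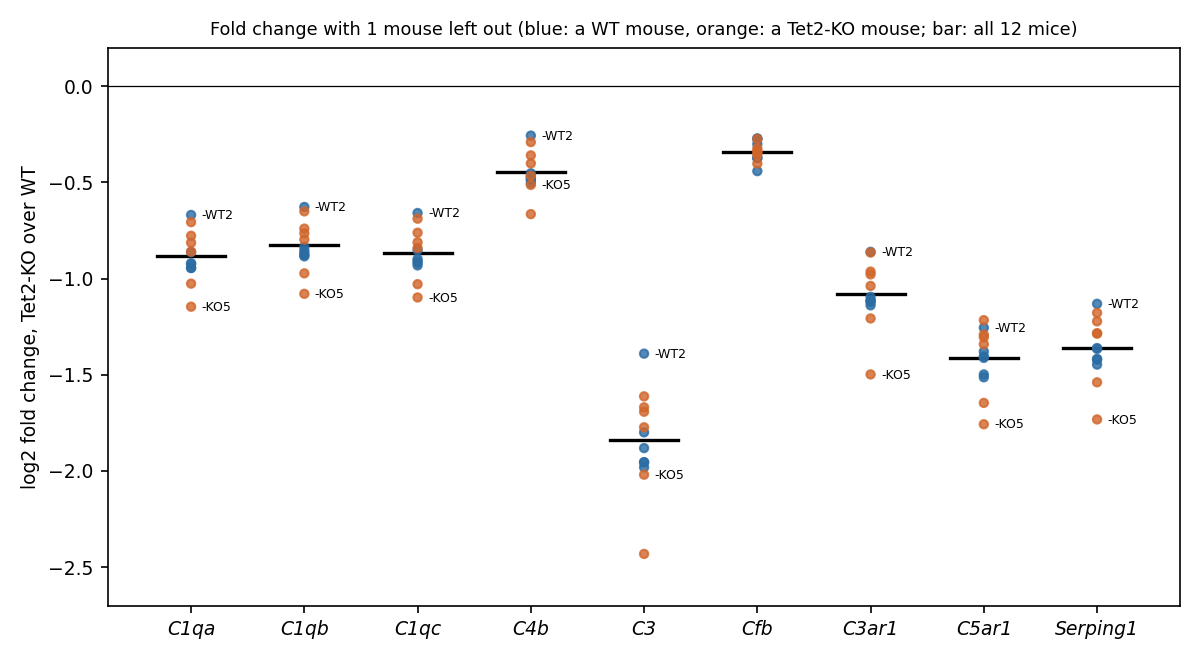
Log2 fold change (Tet2-KO over WT) of each complement gene with 1 mouse left out in turn (blue for a WT mouse, orange for a Tet2-KO mouse), and with all 12 mice (black bar). All values lie below 0, and for 7 of the 9 genes leaving out WT mouse 2 gives the value nearest to 0.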

How the data were processed

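RNA from 12 brains, 6 WT and 6 Tet2-KO, was depleted of ribosomal RNA and sequenced. The authors deposited raw read counts per gene, with no normalization. The submitters' processing notes name Trimmomatic 0.36, STAR 2.5.2b, featureCounts (Subread 1.5.2) and mm10, and the annotation and strand setting are not given in the sources used here. Symbols were taken from a gene ID table (48970 of 49315 IDs matched), and coordinates from GENCODE M21 on GRCm38. Counts were fitted for all genes with edgeR 4.0.16 (TMM scaling, filterByExpr, robust quasi-likelihood F test), with adjustment by Benjamini-Hochberg over 20290 genes and a threshold of 0.05. limma 3.58.1 and DESeq2 1.42.0 (whose Wald test the study used), other scalings and filters, a replicate block and fits without each mouse were alternatives. The edgeR step was first tested on simulated data. CPM values use TMM-scaled library sizes, and log2 CPM used a prior count of 2. The study gives 6 mice per group, and libraries of a group differed by more than sampling noise (chi-square per degree of freedom of at least 1.91).

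The 9 genes and all lists were chosen with earlier results of these data known. Named genes were the 9, the complement list by role (values for those at an unadjusted p below 0.05 or at 10 CPM or more), the 5 genes closest to C1q, C3 and C4b, Tet2, and single markers. Values of C4a, C5ar2, Hc, Ly6g, Vcan, Apoe, Slc1a2 and Csf1r were added after they were seen. Single values of 2 genes on these lists are not reported here.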

Additional observations from a re-analysis of the deposited data

Results flagged for a closer look

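Among 44 sets of 6 values examined (the 9 genes and 13 summed marker lists in each group), 15 held a mouse far from its group. Distance was measured by the gap to the nearest neighbour over the whole range. Chance alone gives about 1 in 20 where values are normally distributed. The values were CPM without log transformation, so the rate for these data may differ. Of the 15, 14 were WT mouse 2, so they are not independent of each other. WT mouse 2 stood out in 7 of the 9 complement genes, with C1qa at 404 CPM, C1qb at 484 CPM, C1qc at 389.9 CPM, C4b at 545 CPM, C3 at 349 CPM, C3ar1 at 132 CPM and Serping1 at 128 CPM.

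The same mouse stood out in summed markers of homeostatic microglia (1162 CPM), microglia and macrophages in general (1021 CPM), infiltrating monocytes (131 CPM), activated phagocytes (6531 CPM), reactive astrocytes (3113 CPM) and endothelial cells (296 CPM), all at the high end, and in neuronal markers at the low end (2878 CPM). The remaining value was the choroid plexus sum of Tet2-KO mouse 4 (693 CPM, the highest of its group). The total of 13710277 reads and the mitochondrial share of 3.16% of WT mouse 2 lay within the range of the other WT libraries. Tet2-KO mouse 6, in none of these sets, had a mitochondrial share of 4.74%.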

How the results depend on the processing

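All 9 genes kept a negative log2 fold change under all 21 alternatives. The count of genes lower at an unadjusted p below 0.05 was 7 under every other tool, scaling and filter, and 2 to 8 when 1 mouse was left out. The share of all genes in each fit so called ran from 7.47% to 14.1% and from 7.92% to 14.6%, respectively. The 7.47% is over the 37685 genes with a fold change in the DESeq2 fit on the whole table. The count past the adjusted threshold was 0 except for 2 with DESeq2, 3 with limma-voom, 0 to 3 with 1 mouse left out, and 2 with both WT mouse 2 and Tet2-KO mouse 5 left out. Of all tested genes, DESeq2 called 7.2%, limma-voom 9.2%, the fits without 1 mouse 0% to 11%, and the fit without both mice 7.6%. The DESeq2 fit on the whole table, chosen after seeing the data, called 914 genes in all against 1464 on the filtered genes, and edgeR called 5, with 4678 at an unadjusted p below 0.05. The median of the 9 ran from -1.15 to -0.67 with 1 mouse left out, and the other complement genes from 10 to 17 lower and from 4 to 6 higher.

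Replicate numbers are shared by the groups, but only 1 of 6 same-numbered pairs deviated together (r over 0.1), so no pairing by number was detected. With 6 mice per group, these values cannot exclude one. With the replicate block, the median was -1.02, 7 genes were under the unadjusted threshold (11.9% of all tested genes) and 0 passed after adjustment (0%). Depth limits Cfb (13 to 28 reads per mouse) and the 18 complement genes that were too low to test.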
